A study of Mus musculus with 11 samples.

Results

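Foxp1, Foxp2 and Foxp4 are the forkhead box P genes expressed in the embryonic brain, and they were followed here by name through every count table of a study of Syncrip, an RNA-binding protein, in the developing mouse cortex. They are 3 of the 48440 genes of the culture count table and 3 of the 32285 genes of the single-cell matrices. They were chosen with results of these data in view, because Foxp2 differed between genotypes in opposite directions in culture and in tissue. The genotype differences of the members are therefore given as descriptions, with no test.

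FOXP proteins bind DNA through a forkhead domain, form homodimers and heterodimers with each other through a leucine zipper, and act mostly as transcriptional repressors. In the forebrain, Foxp1 is known for its expression in striatal projection neurons, in cortical neurons and in the radial glia of early neurogenesis. Foxp2, whose human counterpart is linked to speech, is known from the striatum and from corticothalamic neurons of layer 6. Foxp4 is expressed more broadly, and Foxp3 is the regulator of regulatory T cells. Background of this kind is textbook knowledge and was not measured here.

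RNA-seq was made from neural progenitor cells (NPCs) taken from embryos at E14.5 and grown in medium with EGF and bFGF, with 3 cultures of Syncrip conditional knockout (cKO) embryos and 3 of WT embryos. Single-cell RNA-seq was made from the dissected dorsal telencephalon of 1 WT and 1 cKO littermate at E14.5, on the 10x platform. The study describes its cortical cKO as Syncrip fl/fl with Emx1-Cre, a driver of the dorsal telencephalon, on a C57BL/6 background. It also crossed the floxed allele to Nestin-Cre, and the labels name the Cre for neither experiment. WT is the only control named in the labels, which do not say whether controls carried the floxed allele, whether cultures came from separate embryos, or whether several embryos were pooled in one culture. Any p-value over cultures may therefore measure technical spread only.

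Between 16962903 and 22708400 reads were counted per culture. After filtering, 8214 WT and 9559 cKO cells remained, with a median of 11705 and 11016 UMIs (unique molecular identifiers, one per captured transcript) per cell, and 22 barcodes occurred in both libraries. Syncrip itself averaged 79.2 ± 1.09 CPM (read counts scaled to the library total) over the WT cultures and 86.8 ± 4.69 over the cKO cultures (SD, n = 3 each), and its CPM in apical progenitors was 319 (WT) and 328 (cKO). The deleted exons are internal, whereas the culture counts cover the whole gene and the single-cell tags its 3′ end, so neither value checks the deletion. The cultures held transcripts of Y-linked genes in WT replicates 1 and 2 and in cKO replicate 1, and at most 1 such read in each of the others.

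The cultures were compared first, since they are the only replicated samples. All 3 members were expressed in all 6 cultures, and Foxp2 was the one whose genotypes stood apart: it was 2.33 times as high in cKO as in WT cultures. Foxp1 and Foxp4 overlapped between the genotypes. Levels in culture are CPM after TMM scaling of the library sizes, a correction for differences in RNA composition.

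Foxp2 lies on the plus strand of chromosome 6 in mm10, at chr6:14901349-15441977, a span of 540629 bases with 16346 exonic bases in 20 annotated transcripts. It was measured at 6.21, 4.62 and 5.26 CPM in WT replicates 1 to 3 and at 12.6, 13.5 and 11.6 CPM in cKO replicates 1 to 3. The lowest cKO culture was well above the highest WT culture, and no value of one genotype fell within the range of the other. The mean level was 5.37 ± 0.80 CPM for the WT and 12.6 ± 0.95 CPM for the cKO group (SD, n = 3 each), a log2 fold change of 1.22 with a standard error of 0.16. These levels rest on 83 to 138 reads per WT culture and 232 to 256 reads per cKO culture. The size of this difference was larger than that of 94.8% of the 14432 genes tested.

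Foxp1 lies on the minus strand of the same chromosome, at chr6:98925338-99522721, with 13751 exonic bases. It was measured at 17.0, 16.8 and 17.0 CPM in the WT cultures and at 16.4, 20.2 and 16.5 CPM in the cKO cultures. The cKO cultures lay on both sides of the WT cultures, and replicate 2 alone was higher. The log2 fold change was 0.06 with a standard error of 0.12, and it turned to -0.038 without cKO replicate 2.

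Foxp4, at chr17:47867133-47924645 on the minus strand with 4926 exonic bases, was measured at 22.6, 27.5 and 31.5 CPM in the WT cultures. In the cKO cultures it was measured at 21.8, 24.4 and 21.6 CPM. Replicates 1 and 3 of cKO were below every WT culture, but replicate 2 lay above WT replicate 1, so the groups overlapped. The log2 fold change was -0.27 with a standard error of 0.12. Foxp3, on chromosome X, had 0 reads in all 6 cultures.

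Thus 1 of the 3 members did not overlap between genotypes. Across all genes tested, 50.4% did not overlap and 39.5% passed an adjusted p of 0.05 (19.7% higher and 19.8% lower in cKO), so a separated gene was common in these cultures. Nothing about the family is read from that count, which follows from the choice of members.

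**Figure D1:**
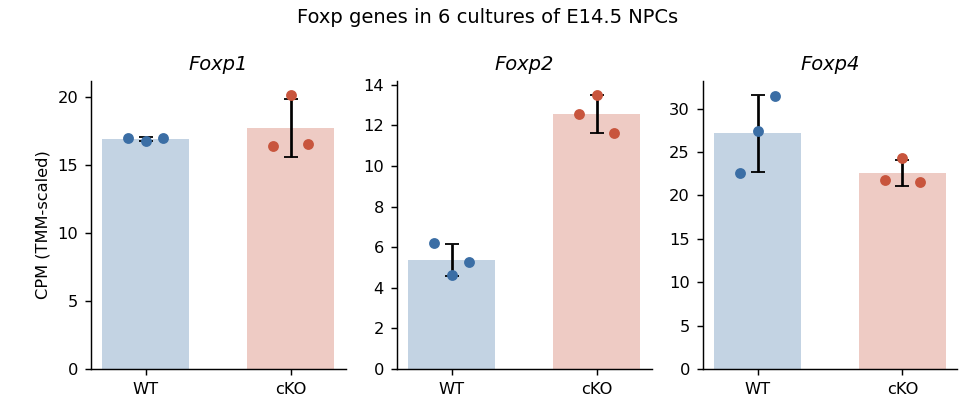
Levels of Foxp1, Foxp2 and Foxp4 (CPM, TMM-scaled, separate vertical axes from 0) in 3 WT and 3 cKO NPC cultures, with points for cultures, bars for means and whiskers for the SD. Foxp2 separates the genotypes, with WT at 4.62 to 6.21 and cKO at 11.6 to 13.5 CPM, whereas Foxp1 and Foxp4 overlap.

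The make-up of the family followed the level of Foxp2. Of the CPM of the 3 members together, Foxp2 held 9.46% to 13.6% in the WT cultures and 23.3% to 24.8% in the cKO cultures. The shares of Foxp1 and Foxp4 depend on that of Foxp2 and are not given as separate results. Since long transcripts give more reads, levels were also taken per kilobase of exon to compare the genes with each other. On that scale Foxp4 led, at 5.52 ± 0.90 CPM per kb in WT (SD, n = 3), followed by Foxp1 at 1.23 ± 0.0084 and Foxp2 at 0.328 ± 0.049. The order was the same in cKO, with 4.58 ± 0.31, 1.29 ± 0.16 and 0.769 ± 0.058 CPM per kb.

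Other annotated genes lie within the spans of all 3 members. The span of Foxp1 is shared for 44.4% with 4 other genes on the same strand, of which Gm20696 had 10 to 21 reads per culture and the other 3 had none. How reads shared by overlapping genes were treated is not stated, so reads of Foxp1 lost to such overlap cannot be counted. The single small genes within the spans of Foxp2 (Gm25470) and Foxp4 (Gm15556, on the opposite strand) had 0 reads in every culture. Both Foxp1 and Foxp2 are among the longest genes of the genome, and the 914 tested genes with a span of at least 200 kb had a median log2 fold change of 0.15, against -0.01 for the 13518 shorter ones. Of those long genes, 3.39% had a fold change at or above that of Foxp2. With the trend over gene span removed, a step added after the values were seen, Foxp2 was at 1.02, Foxp1 at -0.15 and Foxp4 at -0.33 on the log2 scale.

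Proteins that work with FOXP factors, and genes reported as their targets, were then taken from lists. The counts below stand beside a background of 39.5% of all genes past an adjusted p of 0.05, with 19.7% higher and 19.8% lower in cKO. CtBP and the NuRD complex are corepressors that FOXP proteins recruit. Of 14 such genes, 1 rose, 1 fell and 12 did not pass an adjusted p of 0.05 (edgeR), with a median log2 fold change of -0.03 against 0.00 over all genes. Chd3, a helicase subunit of NuRD, fell by 1.30 on the log2 scale (SE 0.21, adjusted p = 0.0013 by edgeR), from 41.8, 48.2 and 77.5 CPM in WT to 19.9, 24.8 and 23.2 CPM in cKO. The rise was that of the deacetylase Hdac1. The count of 2 called genes became 4 with the replicate number as a block and 6 without WT replicate 1.

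Of 8 cortical transcription factors reported to bind FOXP proteins, 2 rose, 1 fell and 5 did not pass, with a median of -0.02. Nr2f2, an orphan nuclear receptor of caudal and ventral telencephalon, fell by 2.64 on the log2 scale (SE 0.49, adjusted p = 0.0027 by edgeR). The WT cultures had 9.59, 11.7 and 3.21 CPM of it and the cKO cultures 1.67, 0.82 and 1.35 CPM, and WT replicate 3 was the lowest of its group. The count of 3 fell to 1 without WT replicate 2 and to 1 without cKO replicate 1.

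Of 9 tested genes reported as Foxp targets, 5 rose, 1 fell and 3 did not pass, with a median of 0.34, where 19.7% of all genes rose and 19.8% fell. Cntnap2, a neurexin-like adhesion protein and a widely cited Foxp2 target, fell by 1.39 (SE 0.18, adjusted p = 3.8e-05 by edgeR), from 10.3 to 14.7 CPM in WT to 4.25 to 5.64 CPM in cKO. Disc1, a scaffold protein, rose by 0.95 (SE 0.11, adjusted p = 1.3e-05 by edgeR). Slit1, a guidance ligand, rose by 0.75 (SE 0.099, adjusted p = 5e-05 by edgeR), and the Notch ligand Jag1 rose by 0.63 (SE 0.10, adjusted p = 0.00039 by edgeR). Srpx2 and Plaur had too few reads to be tested.

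Cell type markers moved with genotype in the same cultures, where 19.8% of all genes fell and 19.7% rose. Neuron markers fell in 8 of 10 tested genes and rose in none, with a median log2 fold change of -0.48, although their summed level was 2415 to 2670 CPM in WT and 2478 to 2521 CPM in cKO. Ventral and striatal markers, from the region where Foxp1 and Foxp2 are known to be high, fell in 4 of 8 and rose in none, from a sum of 57.2 to 62.5 CPM in WT to 43.2 to 50.1 CPM in cKO. Astrocyte markers fell in 6 of 7, from a sum of 6681 to 6918 CPM to 4716 to 5260 CPM. Slc1a3 and Aldoc of this list also serve below as markers of apical progenitors, so the sum does not tell astrocytes from progenitors. Slc1a3 averaged 2782 ± 207 CPM in WT and 2216 ± 183 in cKO, and Aldoc 974 ± 117 and 526 ± 26.5 (SD, n = 3 each). Of 5 oligodendrocyte lineage markers 2 rose, from a sum of 1868 to 2195 CPM to 2250 to 2665 CPM. Endothelial, pericyte and blood markers summed to at most 49.8 CPM in any culture, and microglia markers to at most 1.13 CPM in WT and at least 1.31 CPM in cKO. The part of these lists in the Foxp2 difference was not tested, and in such bulk samples a change in the number of cells that express a gene and a change in RNA per cell cannot be told apart.

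In the cortex, the cells were grouped by their own expression with the Foxp genes left out of the clustering. Of 29 clusters, 24 were named from marker lists into 15 classes, called "-like" because the names rest on these markers, and 5 clusters with 1592 WT and 1921 cKO cells stayed unnamed. The neural classes were apical progenitors (APs, the radial glia at the ventricle), intermediate progenitors (IPs), migrating neurons, upper-layer and deep-layer neurons, and cells of the ganglionic eminence (GE), the ventral region that forms the striatum and cortical interneurons. AP-like cells expressed all 11 AP markers above the rest of the cells in both of their clusters. Among the deep-layer-like clusters the naming was weakest for cluster 10, with 4 of 10 markers raised. Levels are again CPM, here the UMIs of a gene scaled to all UMIs of a class with no TMM factor, and the intervals of 95% cover counting error only. With 1 embryo per genotype there is no replicate and no test between genotypes, and differences between embryos, dissections and genotypes cannot be told apart.

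Foxp1 and Foxp2 were both highest in the small class of striatal neuron-like cells, with 111 WT and 110 cKO cells. Foxp1 stood there at 1304 CPM in WT and 1278 in cKO, and Foxp2 at 1605 and 1669. The next neural class for both genes was a group of other GE-like cells led by Adarb2 and Six3, with Foxp1 at 521 and 522 and Foxp2 at 660 and 529.5.

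In the cortical lineage the members followed different courses. Foxp1 was at 333.5 CPM in WT and 316 in cKO APs and at 308 and 290.5 in IPs. It was lower in migrating neurons, at 275 and 235.5, and in upper-layer neurons, at 228 and 211, and highest in deep-layer neurons, at 443 and 420. In the order of classes, IPs, meningeal fibroblasts and migrating neurons overlapped with their neighbours, as did upper-layer neurons and GE progenitors, while the ranges of deep-layer neurons, APs and IPs were separate.

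Foxp2 was at 253 CPM in WT and 173 in cKO APs, was higher at 424 and 378 in IPs and at 419 and 361 in migrating neurons, and stood at 262 and 257 in deep-layer neurons. It was lowest in upper-layer neurons, at 42.8 and 54.8. GE progenitors, IPs and migrating neurons overlapped with each other in this order.

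Foxp4 had a peak of its own in the neurogenic stages. It was at 51.9 and 54.0 CPM in APs, 175 and 167.5 in IPs and 174.5 and 177 in migrating neurons, and was lower again at 79.6 and 73.6 in upper-layer and 62.9 and 64.0 in deep-layer neurons. IPs and migrating neurons overlapped, and both lay above every other class. In APs the order of the members was thus Foxp1, Foxp2, Foxp4 in both libraries. Whether intronic reads were counted is not stated, and Foxp1 and Foxp2 span 597384 and 540629 bases against 57513 for Foxp4, so the part of gene length in this order was not tested.

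Red blood cell-like cells, which should lack all 3 genes, held 3 to 7 UMIs of each member per library. That gave 17.8 and 28.6 CPM for Foxp1, 26.7 and 12.3 for Foxp2 and 13.4 and 24.5 for Foxp4, in WT and cKO. These small cells hold few UMIs, so their CPM cannot be carried over to larger cells, and the background was also read per cell. Foxp2 had a mean of 0.111 UMIs per red blood cell-like cell in WT and 0.0536 in cKO, against 0.552 and 0.679 in upper-layer neurons, the neural class of the cortical lineage with the lowest level. Foxp3 had 10 UMIs in the whole WT and 24 in the whole cKO library and none in striatal neurons.

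**Figure D2:**
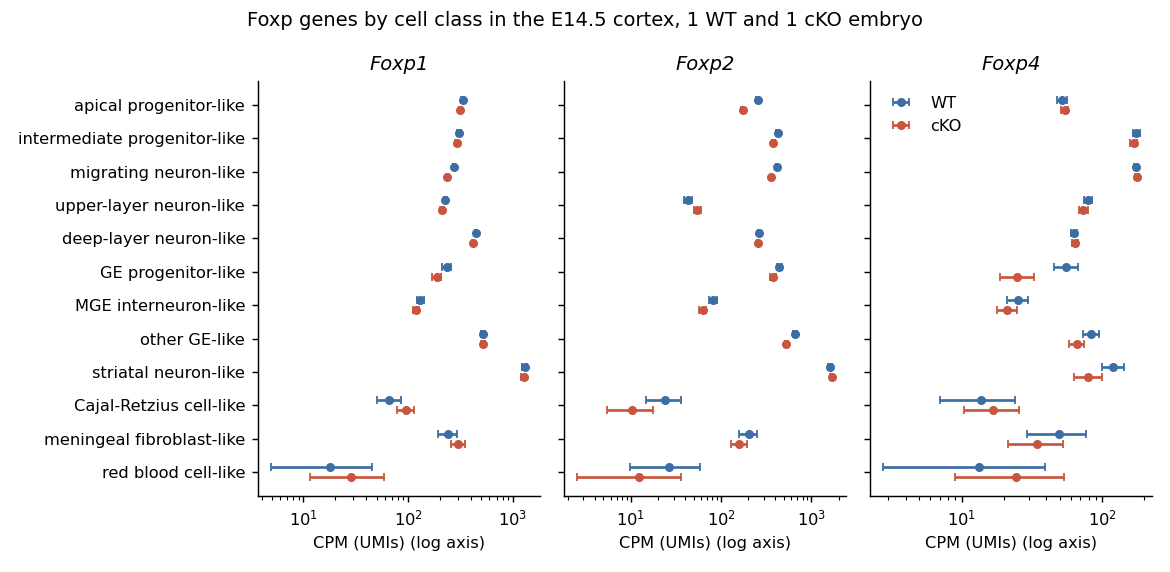
Level of each member by cell class (CPM, log axis) in the WT and the cKO embryo, with points for the summed level of 1 library and whiskers for exact 95% Poisson intervals. Foxp1 and Foxp2 peak above 1200 in striatal neuron-like cells, and Foxp4 peaks near 175 in intermediate progenitor-like and migrating neuron-like cells.

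Some classes combined clusters with very different levels. Of the 3 deep-layer clusters, Foxp2 was concentrated in cluster 8, which is led by Hs3st4, a marker of corticothalamic neurons, at 741 CPM in WT and 646 in cKO. It stood at 146 and 168 in cluster 4 and at 34.3 and 35.1 in cluster 10, which is led by Slit3 and holds Nefm. Foxp1 was highest in cluster 4, at 541 in both libraries, against 389 and 439 in cluster 8 and 329 and 223 in cluster 10. In the MGE interneuron-like class, the small cluster 24, with 108 cells and a high UMI count, had Foxp2 at 172 and 221 CPM against 60.0 and 29.8 in cluster 2. Migrating neurons combined cluster 3, with Eomes among its leading genes, and cluster 0. Foxp2 was at 558 and 418 CPM in cluster 3 and at 323 in both libraries of cluster 0, and Foxp4 at 215 and 207 against 147 and 156. Among IP clusters Foxp2 ran from 226 and 161 CPM in cluster 21 to 536 and 464 in cluster 12.

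Foxp2 was lower in cKO than in WT APs, the progenitors at the ventricular surface. It stood at 0.683 times its WT level, a log2 ratio of -0.55 with an interval of -0.62 to -0.48, on 3090 UMIs in 761 WT cells and 3151 UMIs in 1102 cKO cells. Foxp1 was nearly level at -0.08 (-0.14 to -0.02), and the interval of Foxp4 included 0, at 0.06 (-0.09 to 0.20). Among the 10308 genes with at least 200 UMIs in APs, 0.815% had a lower ratio than Foxp2, and 1.16% were lower in cKO by at least 0.5 on the log2 scale. Of the 3 members, 1 was past that limit, which is the member and the contrast that the choice used.

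The lower Foxp2 level was present in both AP clusters. It went from 320 to 209 CPM in cluster 5, led by Aldoc, Fabp7 and Hes5, and from 184 to 132 in cluster 11, led by mitotic genes. The log2 ratios were -0.62 (-0.71 to -0.53) and -0.48 (-0.61 to -0.36). Foxp1 differed between these clusters, with a ratio of -0.16 in cluster 5 and 0.01 in cluster 11. The AP class itself held other cells' markers to a different degree in the 2 libraries. Neuron markers summed to 1136 CPM in WT and 1399 in cKO APs and were higher in cKO for 11 of 12 genes. Deep-layer markers summed to 670 and 856, with 8 of 10 higher in cKO, and striatal markers to 11.8 and 15.8, with 6 of 9 higher. IP markers summed to 1064 and 1036, and AP markers to 7978 and 7931, with 4 of 11 higher in cKO. The part of these markers in the Foxp2 ratio was not tested.

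**Figure D3:**
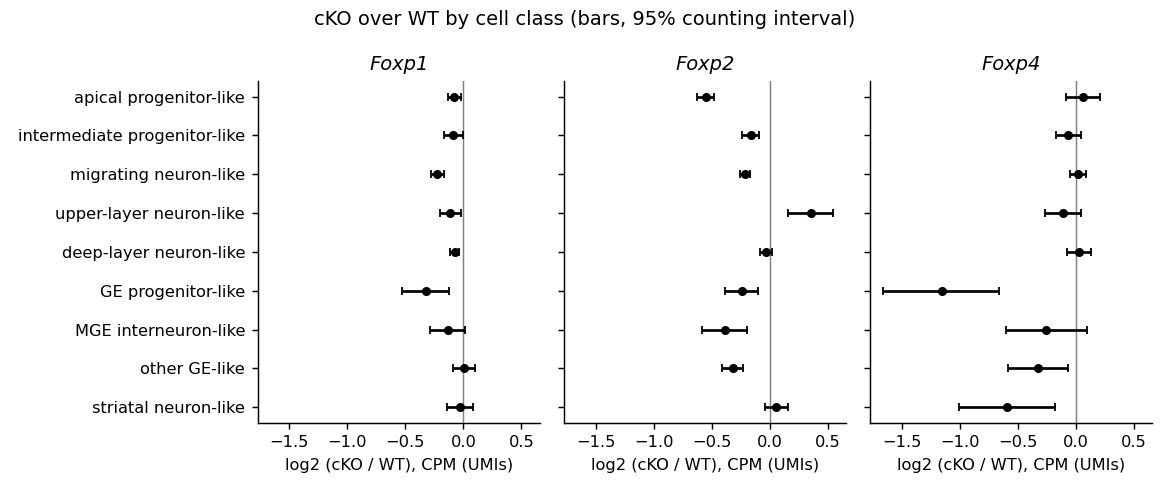
Log2 ratio of cKO over WT for each member in 9 classes of the cortical and GE lineages, with 95% counting intervals and a line at 0, and with Cajal-Retzius-like cells not drawn. Of these 9, Foxp2 is lowest in apical progenitor-like cells at -0.55 and higher in cKO in upper-layer neuron-like cells at 0.36, and Foxp4 is lowest in GE progenitor-like cells at -1.16.

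Cajal-Retzius-like cells, with 64 WT and 112 cKO cells, had a lower Foxp2 ratio of -1.20 (-2.32 to -0.14), which rests on 21 and 13 UMIs. Past the AP stage the Foxp2 ratio of the cortical lineage, taken by named class, came closer to 0. It was -0.16 (-0.24 to -0.09) in IPs and -0.21 (-0.26 to -0.17) in migrating neurons. The IP clusters differed, with -0.49 (-0.75 to -0.23) in cluster 21, led by mitotic genes, and 0.08 (-0.09 to 0.25) in cluster 22. Clusters 12 and 18 were both at -0.21. In migrating neurons the ratio came from cluster 3, which still expresses Eomes and Neurod1, at -0.42 (-0.48 to -0.35), while cluster 0 was at 0.00 (-0.07 to 0.06). At a coarser clustering resolution of 0.4, where IPs and migrating neurons were divided differently, the ratios were -0.34 in IPs and 0.031 in migrating neurons. In the IP class, striatal markers summed to 9.49 CPM in WT and 77.9 in cKO, with 8 of 9 higher in cKO. AP markers summed there to 1286 and 1468, and neuron markers to 4758 and 4538. The part of these markers in the Foxp2 ratio was not tested. Deep-layer neurons as a class were at -0.03 (-0.08 to 0.02), made up of -0.20 (-0.26 to -0.14) in cluster 8, 0.20 (0.10 to 0.30) in cluster 4 and 0.03 (-0.23 to 0.30) in cluster 10. An unnamed cluster led by Tafa1 and Tfap2d, the latter from the deep-layer marker list, is outside these classes. Its Foxp2 ratio was lower than that of APs, at -1.41 (-1.68 to -1.13).

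Upper-layer neurons went the other way, with a Foxp2 ratio of 0.36 (0.16 to 0.55) from 415 WT and 467 cKO UMIs, and 97.4% of the 8445 genes measured there had a lower ratio. Other readouts of the same cells showed a smaller difference, or none beyond counting error. At 5000 UMIs per cell the mean was 0.213 Foxp2 UMIs per cell in WT and 0.219 in cKO. At 3000 UMIs per cell it was 0.125 in WT and 0.153 in cKO, so the difference varied with the thinning. The share of cells with a Foxp2 UMI differed by 1.25 percentage points (-2.61 to 5.13) after thinning and by -1.02 points (-5.70 to 3.68) without it. In the same cells all 7 upper-layer markers were lower in cKO, with a sum of 3300 against 2759 CPM, and 8 of 10 deep-layer markers were higher, with a sum of 2167 against 2783. Their part in the Foxp2 ratio was not tested.

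Foxp1 was also lower in cKO migrating neurons, at -0.22 (-0.28 to -0.17), and GE progenitors, at -0.33 (-0.53 to -0.13). In IPs as a class it was at -0.09 (-0.17 to -0.0034). The IP clusters ran from -0.44 (-0.71 to -0.18) in cluster 21 to 0.45 (0.24 to 0.66) in cluster 18. Within deep-layer neurons the Foxp1 ratios also ran in both directions, with -0.56 (-0.66 to -0.47) in cluster 10, 0.00 (-0.05 to 0.05) in cluster 4 and 0.17 (0.09 to 0.25) in cluster 8. Endothelial cells, a class of 24 WT and 33 cKO cells with high Foxp1, had 772 CPM in WT and 515.5 in cKO, beside a median of 39431 and 22067 UMIs per cell, and 6.7% of genes were lower there by at least 0.5 on the log2 scale.

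Cells of the GE lie outside the domain in which Emx1-Cre is known to be active. The study calls this embryo Syncrip cKO, the name it introduced for the cross with Emx1-Cre. The labels name no Cre for it, and deletion in GE cells was not measured, so the ratios of these cells are descriptions only. Over all GE-like cells, 1193 in WT and 1637 in cKO, the ratio was -0.15 (-0.21 to -0.08) for Foxp1, -0.29 (-0.35 to -0.23) for Foxp2 and -0.49 (-0.66 to -0.32) for Foxp4. These pooled values mix classes in different shares, with striatal neurons, where Foxp1 and Foxp2 are highest, at 111 of 1193 WT and 110 of 1637 cKO cells. By class, Foxp1 was at -0.33 (-0.53 to -0.13) in GE progenitors, but the interval included 0 in MGE interneurons at -0.14 (-0.28 to 0.013), in striatal neurons at -0.03 (-0.14 to 0.081) and in the other GE-like cells at 0.0041 (-0.094 to 0.10). For Foxp2 it was -0.24 in GE progenitors, -0.39 in MGE interneurons and -0.32 in the other GE-like cells, but 0.06 (-0.04 to 0.16) in striatal neurons, which turned to -0.20 at a resolution of 1.2, where a second cluster joined that class. The MGE value combined -1.01 (-1.30 to -0.72) in cluster 2 with 0.36 (0.08 to 0.64) in cluster 24. Foxp4 was at 55.4 CPM in WT and 24.9 in cKO GE progenitors, a ratio of -1.16 (-1.66 to -0.66) from 101 and 53 UMIs, and at 120 and 79.7 in striatal neurons, a ratio of -0.59 (-1.01 to -0.18). Of genes with at least 200 UMIs, a number that Foxp4 did not reach in GE progenitors, 1.94% in GE progenitors and 2.81% in striatal neurons were lower in cKO by at least 0.5. Striatal markers over all GE-like cells summed to 819 CPM in WT and 640 in cKO. Syncrip was also lower in cKO GE-like cells, at 307 and 266 CPM, and higher in cKO deep-layer neurons, at 273 and 314.5. Outside the GE-like classes, the unnamed cluster led by Tafa1 and Tfap2d held 90 WT and 394 cKO cells. It had Foxp2 at 195 and 73.7 CPM, a ratio of -1.41 (-1.68 to -1.13).

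APs were then divided by the cell cycle phase called from S and G2/M gene lists. All 3 members were highest in cells called G1 and lowest in cells called G2/M, in both libraries. Foxp2 went from 496 CPM in G1 through 247 in S to 184 in G2/M in WT, and from 346 through 170 to 141 in cKO. Foxp1 went from 473 through 333.5 to 291.5 in WT and from 416.5 through 315 to 297 in cKO. Foxp4 went from 104 through 51.8 to 36.3 in WT and from 109.5 through 51.2 to 45.0 in cKO.

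The Foxp2 ratio of cKO to WT was below 0 in each phase, at -0.52 (-0.67 to -0.37) in G1, -0.54 (-0.67 to -0.42) in S and -0.39 (-0.50 to -0.27) in G2/M. For Foxp1 the interval lay below 0 in G1 only, at -0.18 (-0.32 to -0.04). For Foxp4 it lay above 0 in G2/M only, at 0.31 (0.08 to 0.55). With cells thinned to 5000 UMIs and phases called again, the Foxp2 intervals stayed below 0 in each phase, but those of Foxp1 in G1, at -0.22 (-0.47 to 0.021), and of Foxp4 in G2/M, at 0.35 (-0.17 to 0.87), included 0. Foxp4 in S was then at -0.64 (-1.05 to -0.23), against -0.02 with all UMIs. The phases held different shares of the 2 libraries, with 156, 254 and 351 WT cells and 154, 477 and 471 cKO cells in G1, S and G2/M, and the phase is called from gene scores, so it is no direct measure of cycling.

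**Figure D4:**
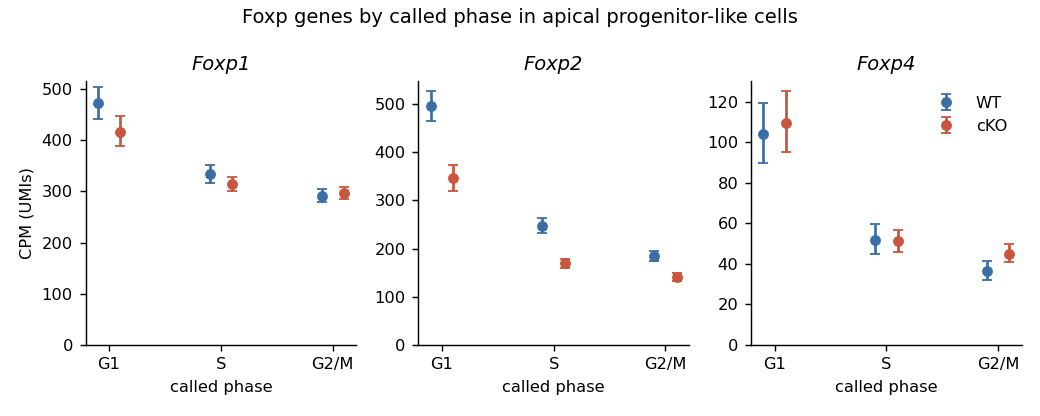
Level of each member (CPM, separate axes from 0) in apical progenitor-like cells called G1, S or G2/M in the WT and the cKO embryo, with exact 95% Poisson intervals. All 3 members are lower in G2/M than in G1, and Foxp2 is lower in cKO than in WT in each phase.

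Shares of cells with a UMI were taken after thinning every cell to 5000 UMIs, which left out 25 of 761 WT and 18 of 1102 cKO APs. A UMI of Foxp2 was found in 58.4% of WT and 43.5% of cKO APs, a difference of -15.0 percentage points with an interval of -19.5 to -10.3. Without thinning the shares were 79.6% and 66.3%. For Foxp1 they were 72.2% and 71.3% after thinning (90.3% and 90.8% before), and for Foxp4 20.4% and 18.0% (43.8% and 42.8% before). The differences of Foxp1 and Foxp4 in APs had intervals that included 0. In striatal neurons Foxp2 was found in 89.0% of WT and 87.4% of cKO cells, and in upper-layer neurons in 15.6% and 16.8%. Red blood cell-like cells, at a median of 3569.5 and 3099.5 UMIs against 14071 and 13818.5 in APs, had a Foxp2 UMI in 9.26% and 5.36% of cells before thinning. After thinning 15 WT and 18 cKO cells of that class were left, with 1 and 0 of them positive and exact upper bounds (Clopper-Pearson) of 31.9% and 18.5%.

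Since FOXP proteins can pair, cells with UMIs of more than 1 member were counted. In WT APs, 346 of 736 cells (47.0%) had both Foxp1 and Foxp2, where the product of their shares gave 42.2%. In cKO APs it was 368 of 1084 cells (34.0%) with a product of 31.0%. A Foxp2 UMI was found in 65.2% of WT APs with Foxp1 and in 41.0% of those without it, and in cKO in 47.6% and 33.1%. Cells with both made up 63.4% of WT and 64.4% of cKO striatal neurons, but 11.1% and 12.8% of upper-layer neurons. In deep-layer neurons the share with both was 29.9% in WT, beside a product of 29.8%, and 34.5% in cKO, beside 31.9%. These counts cover transcripts and not dimers, and cells of 1 embryo are not replicates.

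**Figure D5:**
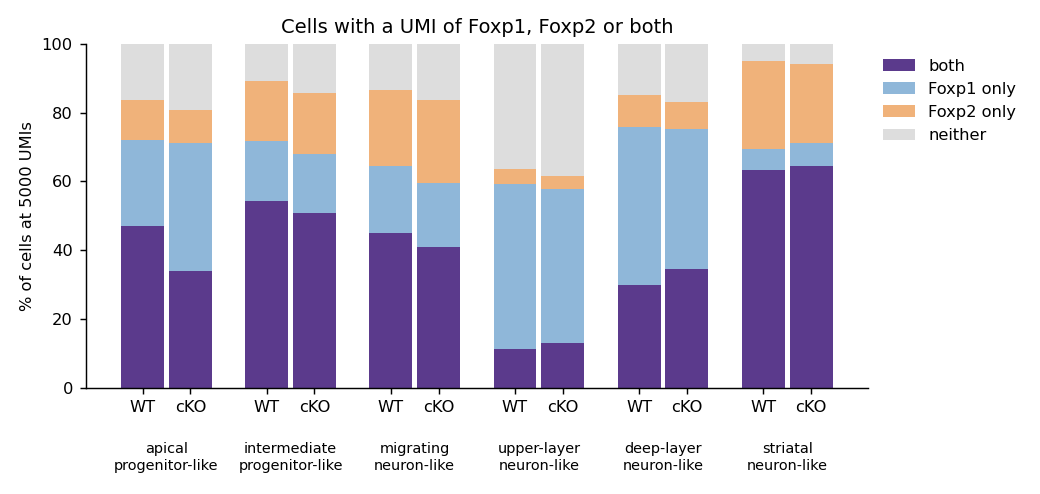
Percentage of cells, thinned to 5000 UMIs, with a UMI of both Foxp1 and Foxp2, of either alone or of neither, in 6 classes of the WT and the cKO embryo. Both genes are found together in 47.0% of WT and 34.0% of cKO apical progenitor-like cells and in over 60% of striatal neuron-like cells.

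Across 24 points, 12 classes in each of 2 libraries, the log2 levels of Foxp1 and Foxp2 had a Pearson r of 0.87, those of Foxp1 and Foxp4 one of 0.66 and those of Foxp2 and Foxp4 one of 0.68. These points share libraries and related cell types, so the values are descriptions. Among 6731 genes, Foxp1 was the gene most like Foxp2, followed by the ephrin receptor Epha4 (0.85), the homeodomain factor Pbx3 (0.83), the ubiquitin-conjugating enzyme Ube2e3 (0.81) and the homeodomain factor Meis2 (0.79). The log2 ratio of cKO over WT in APs was -0.08 for Foxp1, 0.01 for Epha4, 0.17 for Pbx3, -0.07 for Ube2e3 and 0.16 for Meis2. Of the genes with at least 200 UMIs in APs, 30.9% had a lower ratio than Foxp1. Foxp2 was chosen for its ratio in APs, so no contrast with these genes is drawn. The genes most like Foxp1 were Arl15 (0.87), Foxp2, Zfc3h1 (0.85), the atypical kinase Mapk4 (0.85) and the catenin Ctnnd1 (0.84). Foxp4 was most like the leucine-rich repeat protein Lrrn3 (0.87), Fam53b (0.86), the corepressor Rcor2 (0.86), Lzts1 (0.84) and Rasgef1b (0.83).

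The genes named from the partner and target lists in culture were also read in APs. Nr2f2, which fell in the cKO cultures, had 13.7 CPM in WT APs against 37.5 in cKO, a log2 ratio of 1.45 (1.21 to 1.71), and so had the opposite sign in culture and tissue, as Foxp2 did with signs exchanged. Cntnap2, which fell in culture, was at 26.0 and 36.0 CPM in APs, a ratio of 0.47 (0.28 to 0.67). Slit1 rose in culture and was also higher in cKO APs, at 7.22 and 14.3 CPM, a ratio of 0.98 (0.63 to 1.35). Jag1 had 101 WT and 160 cKO UMIs and a ratio of 0.09 (-0.28 to 0.46), Chd3 a ratio of 0.12 (0.03 to 0.21), and Disc1 only 11 and 17 UMIs. In APs 2.16% of genes were higher in cKO by at least 0.5 on the log2 scale.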

How the data were processed

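RNA-seq covered 3 WT and 3 cKO cultures and single-cell RNA-seq 1 WT and 1 cKO embryo. The LACE-seq libraries of the series were not analysed here. For the cultures, the authors deposited raw counts per gene after aligning reads to mm10 with HISAT2, while neither the counting program, its annotation nor its strand setting is named. For single cells, the authors deposited UMI counts written by Cell Ranger 7.0.0, per the file headers, with no statement on intronic reads. Gene positions of the members matched GENCODE M21, used for exon lengths.

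Counts were analysed with edgeR 4.0.16 in R 4.3.3 (filterByExpr, TMM, robust quasi-likelihood fit, Benjamini-Hochberg at 0.05), and 14432 genes were tested. A simulation of this comparison with 200 genes changed 2-fold among 14285 recovered 196, with 14 false calls. In the cultures 39.5% of genes were called, with folds of many sizes, so these rates need not carry over to the data. DESeq2 1.42.0 was an alternative. Barcodes with under 200 genes or over 10% mitochondrial UMIs were left out, and the others were clustered with Seurat 5.3.0 (2000 variable genes less the Foxp genes, sex genes and mitochondrial genes, 30 components, 20 neighbours, resolution 0.8). Clusters were named from fixed marker lists by limits set after the clusters had been seen: a mean z-score from 0.5 upward, 3 or more markers raised 1.5-fold, and a top 10 in which no other class had more markers than the one named. Scrublet in scanpy 1.11.5 called 278 WT and 442 cKO doublets, which were removed only as an alternative. UMIs were summed per class and library, with exact Poisson and Clopper-Pearson intervals, and a Newcombe interval for a difference of shares, at 95%. PCR copies and embryos are outside these intervals. Depth of 16962903 to 22708400 reads per culture limits the precision of low genes.

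The members and lists were chosen with earlier results of these data known. Genes named besides the members and Foxp3 were those overlapping a member, those of the partner and target lists past 0.05 with a log2 fold change of at least 0.5 in size, and the 5 genes most like each member by Pearson correlation of log2(CPM + 10) over classes of at least 50 cells per library, among genes reaching 50 CPM and without predicted genes. Hdac1, Syncrip, Srpx2, Plaur, Slc1a3, Aldoc, the other FOXP-binding factors, marker genes that lead a cluster, and single clusters were named after their values were seen.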

Additional observations from a re-analysis of the deposited data

Results flagged for a closer look

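Foxp2 differed between genotypes in opposite directions in 2 settings. Its log2 fold change was 1.22 in cultured NPCs, where all 3 cKO cultures were above all 3 WT cultures, and its log2 ratio was -0.55 in AP-like cells of the single cKO embryo. This contrast chose the gene, and the difference between culture and tissue was not tested, since the tissue holds 1 embryo per genotype.

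Within the same 2 embryos, the Foxp2 ratio was -0.55 in AP-like cells and 0.36 in upper-layer neuron-like cells. At 5000 UMIs per cell the latter held a mean of 0.213 Foxp2 UMIs in WT and 0.219 in cKO. At 3000 UMIs per cell the means were 0.125 and 0.153, so near equality was seen at 5000 UMIs only. This difference between classes was not tested either. With 3 cultures per genotype, no group was large enough for a search for outlying samples.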

How the results depend on the processing

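Of 79 repeated values of the gene counts, members and lists in culture, 72 were labelled as kept, by limits that differed between kinds of value. A count of called genes had to stay of similar size, and a member's fold change had to keep its sign and stay within the SD of the cultures. Of the 228 other repeated values, 210 were labelled as kept. A single list gene needed only the same sign and an adjusted p below 0.05 (edgeR or DESeq2). These 228 combine all values of the cortex with the fold changes of single list genes in culture, so they give no rate for the cortex alone. The Foxp2 log2 fold change in culture ran from 1.21 to 1.23 over other scalings, filters, DESeq2, the sex of the culture and the replicate block (1.22), and from 1.12 to 1.33 without single cultures. Foxp1 ran from -0.038 (without cKO replicate 2) to 0.11 and Foxp4 from -0.39 to -0.15 without single cultures. The replicate numbers gave no sign of pairing, with correlations of 0.264, -0.047 and 0.116 between same-numbered cultures, and as a block they raised the genes called from 5701 to 6405. That block raised the called corepressors from 2 to 4, and without WT replicate 1 they were 6, so that they ran up to 6. FOXP-binding factors ran from 1 to 3 of 8 without single cultures. With the trend over gene span removed, which was chosen after seeing the data, Foxp1 turned to -0.15 and Foxp2 moved to 1.02.

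In the cortex, the Foxp2 ratio was -0.68 in APs, -0.26 in IPs and that of Foxp1 0.11 in striatal neurons without doublets. At resolution 0.4 the Foxp2 ratio was -0.34 in IPs and turned to 0.031 in migrating neurons, and the Foxp1 ratio turned to 0.015 in deep-layer neurons. At 1.2 the Foxp2 ratio was -0.29 in IPs, -0.16 in migrating neurons and -0.20 in striatal neurons. The classes hold different cells at each resolution, and upper-layer neurons, endothelial cells, pericytes and fibroblasts formed no class at 0.4. Single AP clusters, chosen after seeing the data, gave -0.16 and 0.010 for Foxp1 (reversed in cluster 11) and 0.25 for Foxp4 in cluster 11. With phases called in thinned cells, Foxp2 was at -0.77 in S and Foxp4 at 0.41 in G1 and -0.64 in S. The cKO minus WT share was -8.65 points for Foxp2 in IPs at 3000 UMIs, and for Foxp4 in migrating neurons -2.76 points at 3000 UMIs and -1.97 points without thinning. The cause of these shifts was not tested. Few UMIs in the class limit the members in red blood cell-like, microglia-like and pericyte-like cells. Pericyte-like cells were few (27 in WT and 18 in cKO) rather than shallow, at a median of 13287 and 11737.5 UMIs. Foxp1 had 199 and 113 UMIs there, and Foxp4 only 10 and 6.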
